A study of Mus musculus with 19 samples.

Results

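Sphingolipids are built on ceramide. Serine palmitoyltransferase makes the sphingoid base, ceramide synthases attach a fatty acid to it, and the ceramide is then turned into sphingomyelin, glycosphingolipids or ceramide 1-phosphate. Sphingomyelinases and lysosomal hydrolases return ceramide, ceramidases release sphingosine, and sphingosine kinases phosphorylate sphingosine to sphingosine 1-phosphate (S1P), a lipid that signals through G protein-coupled receptors on endothelial, mesenchymal and immune cells. The genes described here are 41 members of this route, listed by symbol for their role in it, out of 54532 genes in the count table. They comprise 18 genes of synthesis, 18 of breakdown and 5 S1P receptors, and each had 1 row in the table.

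RNA was taken from whole obstructed kidneys of male mice, 8 to 9 weeks old on the C57BL/6J background, 12 days after unilateral ureteral obstruction (UUO), in which a ureter is tied so that tubular injury and fibrosis follow. The mice were wild-type (WT) or lacked CD5L (CD5L KO), a circulating protein made mainly by macrophages, and received daily intraperitoneal injections of recombinant CD5L (rCD5L, 0.5 mg per mouse) or PBS. There were 5 WT kidneys with PBS, 5 WT kidneys with rCD5L, 4 CD5L KO kidneys with PBS and 5 CD5L KO kidneys with rCD5L, all of them obstructed. The study also assayed sphingomyelinase activity and ceramide in mice treated this way, and the comparisons here address how the messenger RNAs of the same route stood in each group.

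The total count per kidney was 17917491 to 23847090. Cd5l had 0 counts in the 9 CD5L KO kidneys, which allows up to 3 counts each, and 3 to 15 counts in the 10 WT kidneys. One kidney, CD5L KO with rCD5L replicate 4, was the highest or lowest of all 19 for 27 of the 41 members (65.9%) and for 53.6% of all genes. Its summed proximal tubule markers reached 13905 CPM (counts scaled to the library size times a TMM factor), against 1311 to 2724 CPM in the other 18 kidneys. The TMM factor was 0.713 for this kidney and 0.890 for replicate 3 of its group, against 0.966 to 1.07 in the others. A lower factor raises every CPM value of a kidney. Replicate 3 of the same group was at an extreme for 14 members (34.1%, against 38.5% of all genes), and each other kidney for 1 to 7. The fold changes of named genes that rest on this group are given also without these kidneys. In whole-kidney RNA, fewer cells of a type and less RNA per cell cannot be told apart.

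The most abundant members per gene length were lysosomal and ceramide-forming enzymes. Hexa, the alpha subunit of beta-hexosaminidase, averaged 64.8 FPKM (fragments scaled to gene length and library size, range 35.3 to 95.2 over 19 kidneys), and Asah1, the lysosomal acid ceramidase, averaged 55.4 FPKM. Degs1, the desaturase that converts dihydroceramide to ceramide, averaged 49.8 FPKM, and Cers2, the ceramide synthase for very long acyl chains, averaged 42.4 FPKM. The ranges of Hexa, Asah1, Degs1 and Cers2 (36.2 to 62.7 FPKM) overlapped, so the ranges over kidneys do not separate their order. Their order within each kidney was not compared.

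Within the sphingomyelinases, Smpd1, which encodes the acid enzyme, averaged 20.3 FPKM, against 9.10 FPKM for Smpd2, 3.18 FPKM for Smpd4 and 0.275 FPKM for Smpd3, which encode neutral enzymes. Sphk1 and Sphk2, the sphingosine kinases, stood close together at 8.02 and 7.79 FPKM. Sgpl1, the lyase that ends the route by cleaving S1P, was higher than either kinase at 22.3 FPKM. Among the receptors, S1pr1 (9.52 FPKM) and S1pr3 (8.92 FPKM) led, followed by S1pr2 (3.20 FPKM), S1pr4 (1.15 FPKM) and S1pr5 (0.0669 FPKM). S1pr5 had 0 to 12 counts per kidney and was the only member that did not pass the filter on low counts, so 40 of 41 members were tested. In the GENCODE M21 annotation, 18 members share exon bases with another gene, and without a known strand setting their counts are uncertain by the reads of that gene.

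**Figure D1:**
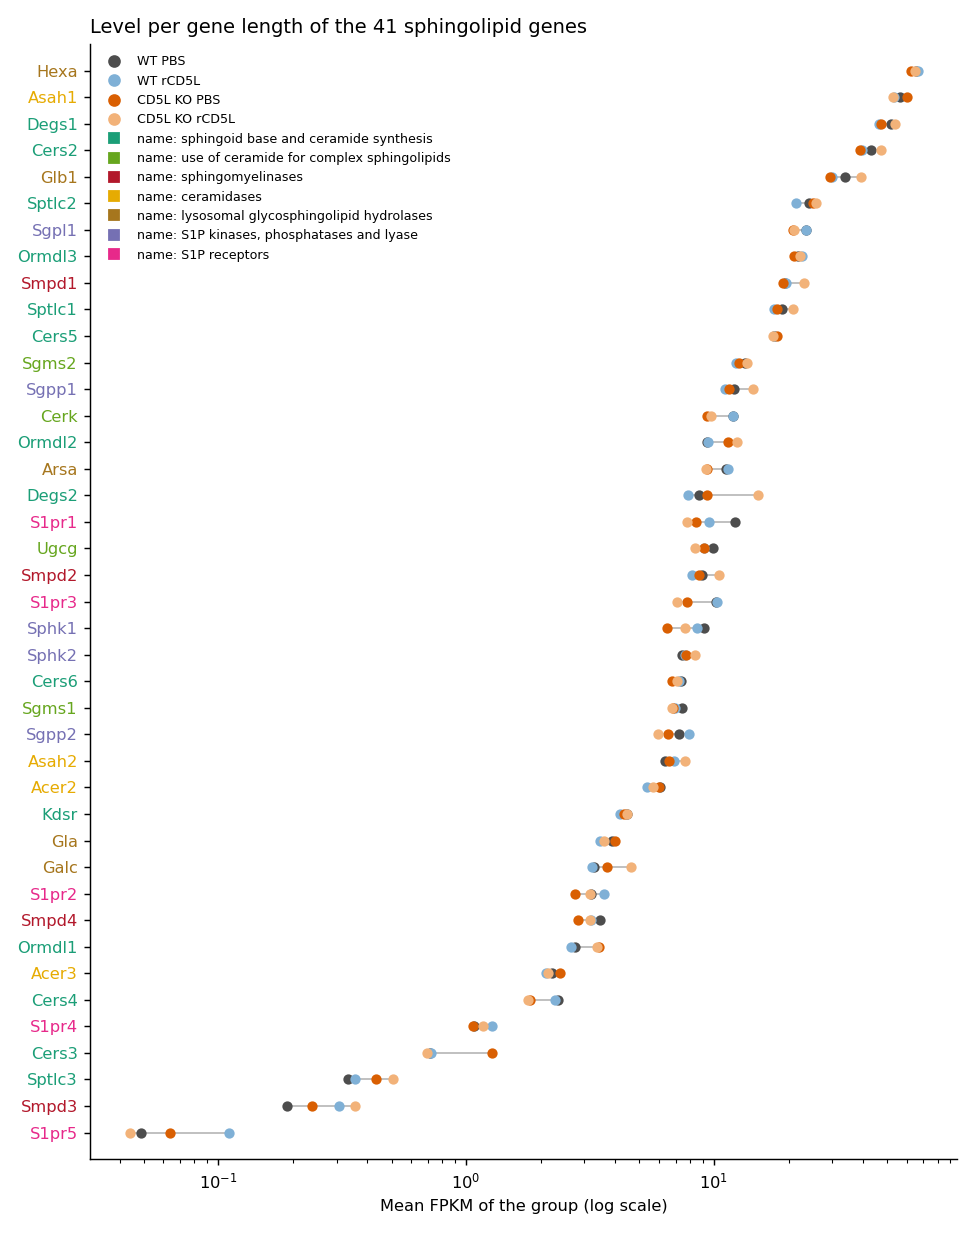
Mean FPKM of each of the 41 genes in the 4 groups, on a log axis, with genes ordered by their mean over 19 kidneys and gene names coloured by role. Levels run from 0.0669 FPKM for S1pr5 to 64.8 FPKM for Hexa, and for most genes the 4 group means lie close together.

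CD5L KO kidneys were first compared with WT kidneys, both given PBS, which addresses what the absence of CD5L does without replacement. S1P receptors S1pr3 and S1pr1, the kinase Sphk1, ceramide kinase Cerk, ceramide synthase Cers4 and the neutral sphingomyelinase Smpd4 fell in CD5L KO kidneys, by 17.8% to 29.8%, and Ormdl1, a regulator that holds back serine palmitoyltransferase, rose by 25.2%. These were 7 of 40 tested members (17.5%) by edgeR's quasi-likelihood test at an adjusted p under 0.05, where 10.5% of all 17579 genes tested were called. Of them, 6 were lower (15.0%, against 5.4% of all genes) and 1 was higher (2.5%, against 5.13%). The values of the groups did not overlap for 5 members (12.5%), against 14.1% of all genes, with 1 member higher (7.26% of all genes) and 4 lower (6.84% of all genes). The fitted fold change was above 0 for 14 members and below 0 for 26, where it was above 0 for 49.3% of all genes. The median log2 fold change of the members was -0.041, and that of all genes was -0.0046.

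S1pr3 (ENSMUSG00000067586, chr13:51408639-51422797 in GRCm38), a receptor known from smooth muscle, fibroblasts and endothelium, was at 44.1, 44.9, 41 and 42.5 CPM in the 4 CD5L KO kidneys. In the 5 WT kidneys it was at 53.3, 52.8, 53.8, 65.3 and 53.7 CPM. Each CD5L KO kidney was below each WT kidney. The log2 fold change was -0.38 (SE 0.0718, adjusted p = 0.00873). S1pr1 (ENSMUSG00000045092, chr3:115710433-115715072), the receptor of endothelial cells and lymphocytes, was at 25.2, 30.9, 32.7 and 38.4 CPM in CD5L KO and at 38.0, 48.4, 37.0, 58.2 and 44.0 CPM in WT kidneys. The groups overlapped, since the highest CD5L KO kidney lay above the 2 lowest WT kidneys, and the log2 fold change was -0.51 (SE 0.141, adjusted p = 0.0384).

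S1pr2, another S1P receptor, had 27.1 ± 1.78 CPM in CD5L KO (SD, n = 4) and 31.0 ± 3.16 CPM in WT kidneys (SD, n = 5). Its fold change did not pass the test, at -0.20 on the log2 scale (adjusted p = 0.168). S1pr4, a receptor of immune cells, had 3.15 ± 0.126 CPM in CD5L KO and 3.13 ± 0.631 CPM in WT kidneys, with a log2 fold change of -0.0015 and a 95% interval of -0.39 to 0.38. S1pr5 was at 0.362, 0.217, 0 and 0.208 CPM in CD5L KO and at 0.177, 0.168, 0.191, 0.161 and 0.0464 CPM in WT kidneys and was not tested. Of the 4 tested receptors, 2 were called lower (50%, against 5.4% of all genes), and the call of S1pr1 was lost in 6 of 9 fits that left out 1 kidney. S1pr2 had a value below 0 that was not called, and the sign of S1pr4 was positive with RLE factors and with DESeq2.

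Sphk1 (ENSMUSG00000061878, chr11:116530925-116536674), the inducible sphingosine kinase, was at 31.9, 35.3, 49.6 and 36.3 CPM in CD5L KO and at 46.6, 57.5, 57.5, 57.4 and 47.7 CPM in WT kidneys. Of the CD5L KO kidneys, 3 lay below every WT kidney and replicate 3 lay among them, with a log2 fold change of -0.49 (SE 0.118, adjusted p = 0.0230). Sphk2, the kinase of the nucleus and mitochondria, had 39.5 ± 1.96 CPM in CD5L KO and 37.9 ± 3.38 CPM in WT kidneys, a difference of 0.057 on the log2 scale (95% interval -0.10 to 0.21, adjusted p = 0.661). The enzymes that remove S1P were not called. The lyase Sgpl1 had a log2 fold change of -0.15 (adjusted p = 0.164), and the phosphatases Sgpp1 and Sgpp2 had -0.066 and -0.13.

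In the use of ceramide, Cerk (ENSMUSG00000035891, chr15:86139128-86186141), which phosphorylates ceramide, was at 59.1, 54.1, 58.3 and 52.7 CPM in CD5L KO and at 63.7, 76.3, 65.9, 72.9 and 70.9 CPM in WT kidneys. The groups did not overlap, and the log2 fold change was -0.33 (SE 0.0645, adjusted p = 0.0100). The other 3 genes that use ceramide, the sphingomyelin synthases Sgms1 and Sgms2 and the glucosylceramide synthase Ugcg, had log2 fold changes between -0.11 and -0.065, and none was called.

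Among the ceramide synthases, Cers4 (ENSMUSG00000008206, chr8:4493026-4531680), which prefers long acyl chains, was at 28.2, 28.9, 28.4 and 24.4 CPM in CD5L KO and at 38.1, 33.5, 34.6, 36.9 and 32.4 CPM in WT kidneys. All 4 CD5L KO kidneys were below all 5 WT kidneys, and the log2 fold change was -0.36 (SE 0.0746, adjusted p = 0.0123). Cers3, the synthase best known from skin and testis, went the other way in the means, at 3.98, 4.87, 4.82 and 6.77 CPM in CD5L KO and 4.51, 3.33, 0.953, 2.69 and 2.78 CPM in WT kidneys. The fold change of Cers3, 0.82 on the log2 scale, was the largest in size among the tested members but did not pass the test (SE 0.320, adjusted p = 0.121, and 0.0495 with DESeq2, which called it), and the groups overlapped at these low counts. The 5 urothelium markers, the uroplakins and Krt5, also had fold changes above 0 (median 0.79 on the log2 scale), none called, with sums of 156 to 271 CPM in CD5L KO and 20.2 to 151 CPM in WT kidneys. WT replicate 3 was lowest of these 9 kidneys and CD5L KO replicate 4 highest, both for Cers3 and for that sum, and the part of urothelium in the Cers3 value was not tested. Cers2, Cers5 and Cers6 had log2 fold changes of -0.13, 0.051 and -0.11, none called.

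At the first step of the route, Ormdl1 (ENSMUSG00000026097, chr1:53297095-53310309) was at 18.9, 20.0, 19.5 and 21.5 CPM in CD5L KO and at 15.6, 16.2, 15.1, 13.5 and 18.9 CPM in WT kidneys. The groups overlapped only where the lowest CD5L KO kidney met the highest WT kidney, and the log2 fold change was 0.32 (SE 0.0941, adjusted p = 0.0464). Its paralog Ormdl2 was at 22.8, 24.3, 24.5 and 22.6 CPM in CD5L KO and at 20.2, 19.1, 21.6, 14.4 and 20.0 CPM in WT kidneys, without overlap, and did not pass the test, with a log2 fold change of 0.30 (SE 0.102, adjusted p = 0.0826), though DESeq2 and the fit with the replicate block called it. Of the exon bases of Ormdl2, 66.7% are also exon of Dnajc14 on the opposite strand, and the strand setting of the counting is not given in the sources used here, so the 2 genes' reads may be mixed. Ormdl3 had a log2 fold change of -0.031 (95% interval -0.19 to 0.13). The serine palmitoyltransferase subunits themselves were not called, with log2 fold changes of -0.058 for Sptlc1, 0.059 for Sptlc2 and 0.40 for the scarce Sptlc3 (0.406 FPKM).

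Of the 4 sphingomyelinases, the class whose activity the study assayed, 1 was called (25%, against 10.5% of all genes). Smpd4 (ENSMUSG00000005899, chr16:17619354-17644828) was at 30.2, 31.7, 28.5 and 35.8 CPM in CD5L KO and at 36.7, 36.0, 39.5, 42.3 and 36.8 CPM in WT kidneys. The highest CD5L KO kidney was just below the lowest WT kidney, and the log2 fold change was -0.28 (SE 0.0776, adjusted p = 0.0366). Smpd1, the acid enzyme, had 78.7 ± 6.67 CPM in CD5L KO and 78.8 ± 5.44 CPM in WT kidneys, with a log2 fold change of -0.0075 and a 95% interval of -0.15 to 0.14. Smpd2 had -0.025 (-0.19 to 0.14) and Smpd3, at 1.55 and 1.21 CPM, had 0.35 (-0.25 to 0.95). Of the exon bases of Smpd2, 20.3% are shared with Mical1 on the opposite strand, and of those of Smpd3, 4.72% with Prmt7.

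No ceramidase and no lysosomal glycosphingolipid hydrolase was called by edgeR's test. The ceramidases Asah1, Asah2, Acer2 and Acer3 had log2 fold changes of -0.0094 to 0.11. Among the hydrolases, Arsa, which removes sulfate from sulfatide, had 42.5 ± 1.55 CPM in CD5L KO and 50.4 ± 5.24 CPM in WT kidneys and a log2 fold change of -0.25 (SE 0.0777, adjusted p = 0.0605). Arsa was called with DESeq2, with the replicate block and without WT replicate 5 (smallest adjusted p = 0.0123 over the alternatives). The beta-galactosidase gene Glb1 had -0.19 (adjusted p = 0.126), Galc had 0.19, Hexa -0.050 and Gla 0.052.

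**Figure D2:**
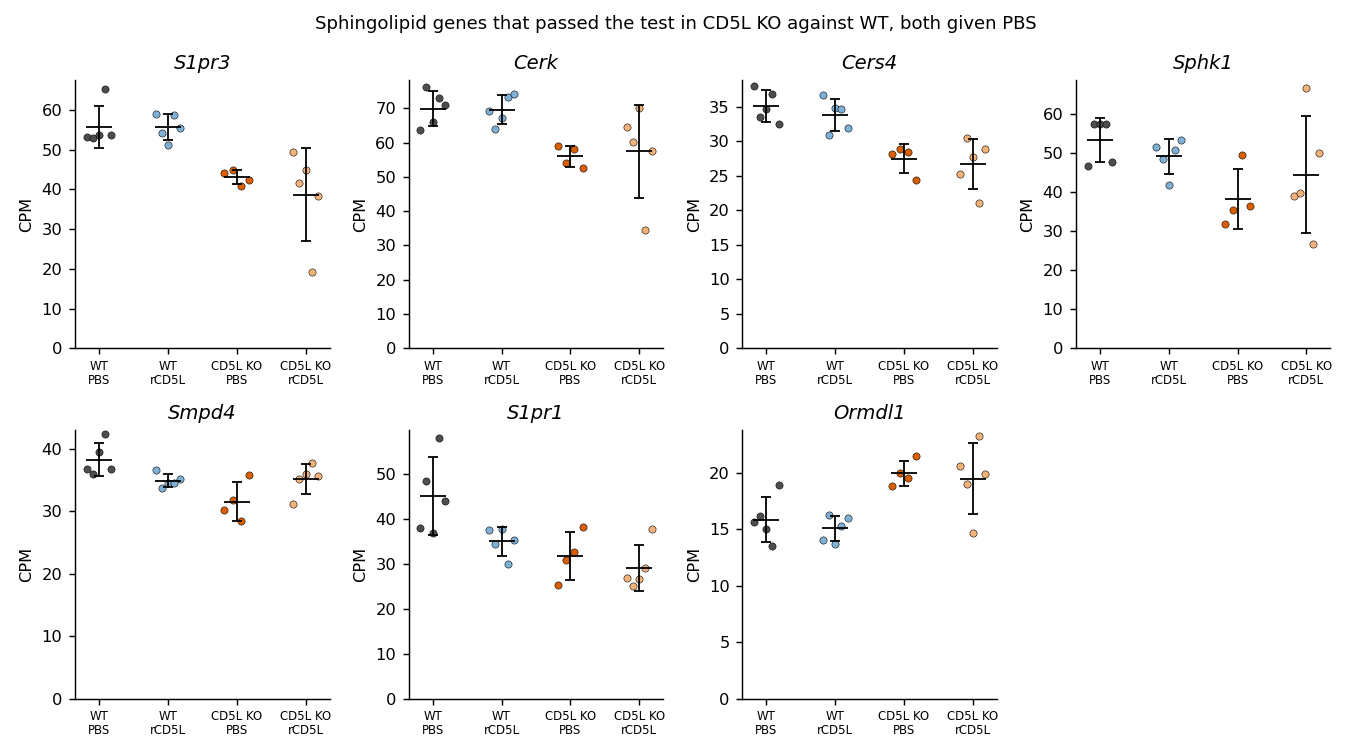
CPM in each kidney of the 7 genes called in CD5L KO against WT, both given PBS, for the 4 groups on linear axes from 0, with points for kidneys and bars for the mean and SD (n = 4 or 5). S1pr3, Cerk, Cers4 and Smpd4 do not overlap between the PBS groups, and 1 kidney of the CD5L KO group with rCD5L lies far below its group for S1pr3 (19.1 CPM) and Cerk (34.5 CPM).

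S1pr3, Cerk and Cers4 passed the test whichever kidney was left out. The calls of the other 4 depended on single kidneys. S1pr1 was not called without CD5L KO replicate 1, 2 or 3 or WT replicate 2, 4 or 5 (adjusted p = 0.0667 to 0.10), and Sphk1 was not called without CD5L KO replicate 1, 2 or 4 or WT replicate 2 or 4 (adjusted p = 0.0556 to 0.0677). Smpd4 was not called without CD5L KO replicate 1, 2 or 3 or WT replicate 2, 3, 4 or 5 (adjusted p = 0.0503 to 0.0957), and Ormdl1 was called in 1 of the 9 fits that left out a kidney, that without WT replicate 5 (adjusted p = 0.0214), and had an adjusted p of 0.0721 to 0.113 in the others. S1pr2 was called without WT replicate 3 (adjusted p = 0.0437). With an offset for gene length, which correlated with the fold change across genes (Spearman's correlation -0.277), Cers4 and Smpd4 were no longer called (adjusted p = 0.0751 and 0.102), and with all 19 kidneys in 1 fit none of the 7 was (adjusted p = 0.130 to 0.391). Over all 18 alternatives the log2 fold changes themselves kept their sign and ran from -0.40 to -0.31 for S1pr3, -0.36 to -0.29 for Cerk, -0.38 to -0.25 for Cers4, -0.61 to -0.40 for S1pr1, -0.63 to -0.41 for Sphk1, -0.34 to -0.21 for Smpd4 and 0.24 to 0.40 for Ormdl1.

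Markers of cells known to carry S1P receptors were read in the same comparison, where 10.5% of all genes were called, 5.4% lower and 5.13% higher. Of 8 endothelial markers, 4 were called lower in CD5L KO kidneys and 0 higher, and their summed level was 705 to 790 CPM in CD5L KO and 838 to 946 CPM in WT kidneys. Of 8 fibroblast and myofibroblast markers, 4 were called lower and 0 higher, with sums of 1542 to 2190 CPM and 2027 to 2970 CPM. Macrophage markers, 1 of 7 of which was called lower, summed to 907 to 1448 CPM and 1170 to 1504 CPM. Of 7 T and NK cell markers none was called, 4 had a fold change above 0, and their sums were 22.5 to 44.8 CPM in CD5L KO and 22.7 to 52.7 CPM in WT kidneys. Of 4 B and plasma cell markers none was called either. Among other lists, all 5 podocyte markers had a fold change below 0 (1 called lower), as had all 4 tested neutrophil markers (0 called). All 5 injured tubule markers were above 0 (0 called), with sums of 1873 to 2161 CPM in CD5L KO and 1573 to 1929 CPM in WT kidneys. No marker of these lists was at 0 in every kidney, and the part of these cells in the values of the 7 called members was not tested.

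The rest of the route was read from 41 further sphingolipid genes, of which 39 were tested. Of these, 3 were called (7.69%, against 10.5% of all genes), all lower in CD5L KO kidneys. Neu3, the ganglioside sialidase of the plasma membrane, had 7.73 ± 0.924 CPM in CD5L KO and 11 ± 0.655 CPM in WT kidneys, with a log2 fold change of -0.51 (SE 0.108, adjusted p = 0.0132). Plpp1, a phosphatase that acts on lipid phosphates including S1P, had 54.8 ± 4.13 CPM in CD5L KO and 66.4 ± 4.55 CPM in WT kidneys, with -0.28 (SE 0.0690, adjusted p = 0.0235). Psap, the precursor of the saposins that assist the lysosomal hydrolases, had 1925 ± 64.8 CPM in CD5L KO and 2198 ± 74.6 CPM in WT kidneys, with -0.20 (SE 0.0545, adjusted p = 0.0382).

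Promoter sequence, from RefSeq on GRCm38.p6, was at hand for 38 of the 41 members as the 250 bases before each annotated start, 53 windows in all. The windows were searched on both strands for CACGTG, the core of the element bound by the lysosomal regulator TFEB, for its longer form TCACGTGA, which contains it, and for TGACNNNGC, the core of the antioxidant response element bound by Nrf2. CACGTG was found for 10 of 38 members (26.3%). By window it was in 11 of 53 (20.8%), 2 of them overlapping windows of Sphk1, against 6.02% of all 32851 windows, and over genes tested it was in 27.0% of 37 members and 9.31% of 12387 genes. TCACGTGA was in 1 member, Gla (0.785% of all windows), and TGACNNNGC was in 5 members and in 6 of the 53 windows (11.3%), against 10.2% of all. A match describes the letters only. Of the 7 called genes, Sphk1 held CACGTG and TGACNNNGC in different windows, and S1pr3, Cerk, Cers4, Smpd4 and Ormdl1 held none. S1pr1, the other called gene, was not searched, since no promoter sequence was at hand for it, nor for Asah1 and Smpd3. The windows of called genes that contain no annotated exon base are shown here, so that a reader can see what lies before an annotated transcript start, with CACGTG in capitals: S1pr3 at chr13:51408368-51408617 (+ strand), Smpd4 at chr16:17619104-17619353 (+ strand) and 1 of the 5 windows of Sphk1 at chr11:116532194-116532443 (+ strand), which lies within the gene, before an alternative start.
S1pr3: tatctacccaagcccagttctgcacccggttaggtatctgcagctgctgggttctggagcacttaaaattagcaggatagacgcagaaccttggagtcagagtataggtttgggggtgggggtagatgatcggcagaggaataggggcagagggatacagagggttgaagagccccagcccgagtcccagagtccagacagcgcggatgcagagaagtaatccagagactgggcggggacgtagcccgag
Smpd4: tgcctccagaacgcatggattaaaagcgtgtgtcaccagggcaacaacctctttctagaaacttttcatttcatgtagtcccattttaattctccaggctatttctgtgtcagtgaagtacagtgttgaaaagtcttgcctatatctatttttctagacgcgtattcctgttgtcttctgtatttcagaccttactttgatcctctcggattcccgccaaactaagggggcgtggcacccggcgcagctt
Sphk1: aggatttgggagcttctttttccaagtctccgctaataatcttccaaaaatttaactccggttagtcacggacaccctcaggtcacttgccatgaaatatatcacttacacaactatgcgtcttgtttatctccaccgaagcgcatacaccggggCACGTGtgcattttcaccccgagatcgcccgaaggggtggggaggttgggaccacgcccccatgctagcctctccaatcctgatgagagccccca

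In CD5L KO mice, rCD5L was compared with PBS, which addresses what returning the protein does. No member was called, and no gene of 17467 was (0% of all genes). At an unadjusted p under 0.05 there was 1 member of 40 (2.5%), against 2.87% of all genes, and the values of the groups overlapped for every member tested (of all genes, 2.34% did not overlap, 0.99% higher and 1.35% lower). DESeq2 also called 0 members. The member below 0.05 was Cers3, at 4.01, 3.75, 1.93, 1.39 and 2.77 CPM with rCD5L and 3.98, 4.87, 4.82 and 6.77 CPM with PBS, with a log2 fold change of -0.86 (SE 0.309, adjusted p = 0.897). Without replicates 3 and 4 of the rCD5L group, its log2 fold change was -0.53. All 5 urothelium markers were below 0 as well (median -0.49), none called, and their sums in the rCD5L group, in the same order of kidneys, were 176, 188, 106, 88.6 and 134 CPM, against 156 to 271 CPM with PBS. Their part in the Cers3 value was not tested.

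All 4 sphingomyelinases had fold changes above 0, and none passed the test. Smpd1 was at 72.8, 81.0, 125, 120.2 and 72.4 CPM with rCD5L and at 76.7, 72.8, 88.3 and 77.1 CPM with PBS. Replicates 3 and 4 were high and the other 3 kidneys lay within the PBS range or just below it, with a log2 fold change of 0.27 (95% interval -0.16 to 0.71) that was -0.054 without those kidneys. Smpd2 was at 40.7, 45.2, 66, 89.1 and 47.6 CPM with rCD5L, and its log2 fold change went from 0.28 (-0.23 to 0.79) to -0.10 without them. Smpd3 had 0.58 (-0.21 to 1.37), and 0.60 without them, at 2.28 ± 1.03 CPM with rCD5L (SD, n = 5). Smpd4 had 0.17 (-0.081 to 0.42), and 0.12 without them. Smpd1 and Smpd2 thus changed sign when replicates 3 and 4 were left out.

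Other members depended on the same kidneys. Degs2, a desaturase that can also make phytoceramide, was at 33.8, 25.3, 40.7, 108 and 31.1 CPM with rCD5L and at 25.2, 31.0, 32.0 and 31.3 CPM with PBS, and its log2 fold change of 0.70 became 0.018 without replicates 3 and 4. The receptors S1pr1, S1pr2, S1pr3 and S1pr4 had log2 fold changes of -0.11, 0.19, -0.15 and 0.13, with 95% intervals of -0.47 to 0.24, -0.51 to 0.89, -0.63 to 0.34 and -0.55 to 0.81. Without those kidneys they were at -0.078, 0.22, 0.0076 and 0.12. Sphk1 was at 38.9, 39.9, 66.8, 26.7 and 50.1 CPM with rCD5L, from the lowest to the highest value of all 19 kidneys, and had a log2 fold change of 0.23 (-0.29 to 0.75), or 0.18 without them. That of Sphk2 was 0.12 (-0.25 to 0.50), or -0.15 without them, and 13.0% and 8.97% of its exon bases are shared with Dbp and Rpl18 on the opposite strand.

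**Figure D3:**
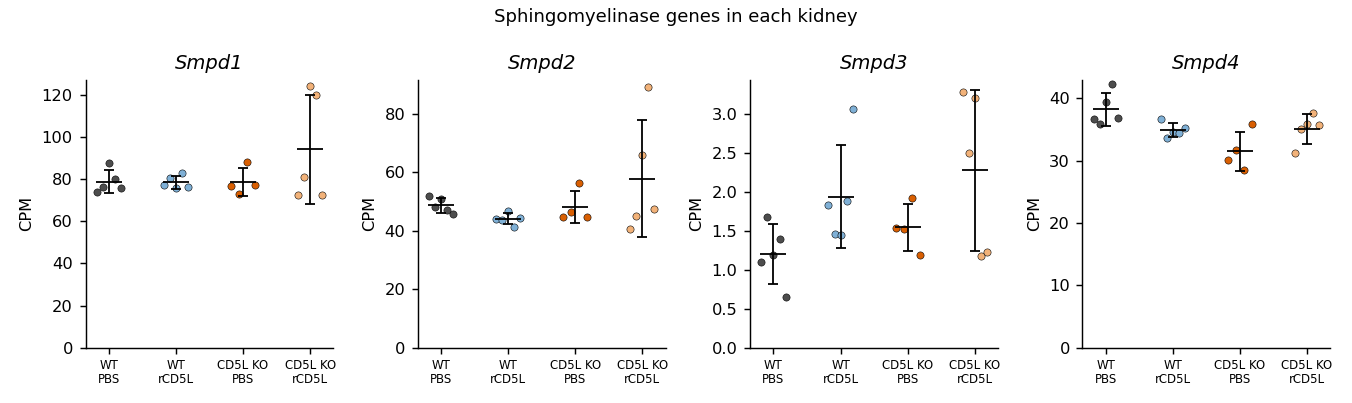
CPM in each kidney of the 4 sphingomyelinase genes in the 4 groups, on linear axes from 0, with points for kidneys and bars for the mean and SD (n = 4 or 5). The highest values of Smpd1 and Smpd2 are those of 2 kidneys of the CD5L KO group with rCD5L, and the mean of Smpd4 is lowest in the CD5L KO group with PBS.

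In WT mice, rCD5L against PBS called no member and no gene of 17455 (0% of all genes). At an unadjusted p under 0.05 there were 8 members of 40 (20.0%), against 16% of all genes. For 3 members the groups did not overlap (7.5%, against 3.58% of all genes), each lower with rCD5L (2.11% of all genes), and they are named here after their values were seen. Sptlc2, the catalytic partner in serine palmitoyltransferase, was at 199, 230.1, 219, 196 and 210.3 CPM with rCD5L and at 237, 241, 243, 236 and 244 CPM with PBS, with a log2 fold change of -0.17 (SE 0.0504, adjusted p = 0.130). Cers2 had -0.12 (adjusted p = 0.181) and Glb1 -0.17 (adjusted p = 0.137). DESeq2 called these 3 genes, and 4.15% of all genes (1.79% higher and 2.36% lower), with adjusted p = 0.0202 for Sptlc2, and no other alternative did. All 8 proximal tubule markers had a fold change below 0 as well (median -0.30 on the log2 scale), none called by edgeR's test. They summed to 1311 to 1936 CPM with rCD5L and 1519 to 2724 CPM with PBS. Their part in the values of Sptlc2, Cers2 and Glb1 was not tested. The fold change was above 0 for 15 members, and for 51.3% of all genes. Of 18 genes of synthesis, 13 had a fold change below 0, with a median of -0.075, against 0.0046 for all genes. Of 18 genes of breakdown, 11 were below 0 (median -0.051), as was 1 of the 4 tested receptors. The synthesis class includes the Ormdl regulators and the genes that use ceramide.

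Of the members with the largest fold changes in WT mice, Smpd3 was at 1.83, 1.47, 1.45, 1.89 and 3.07 CPM with rCD5L and at 1.11, 1.68, 1.19, 1.40 and 0.649 CPM with PBS, with 0.71 (SE 0.283, adjusted p = 0.241). S1pr1 was at 37.7, 34.4, 37.7, 29.9 and 35.4 CPM with rCD5L and at 37.0 to 58.2 CPM (mean 45.1 CPM) with PBS. The groups overlapped, and the log2 fold change of S1pr1 was -0.35 (SE 0.111, adjusted p = 0.154). The endothelial markers summed to 801 to 873 CPM with rCD5L and 838 to 946 CPM with PBS, and their part in the S1pr1 value was not tested. The log2 fold change and its 95% interval were 0.0084 (-0.10 to 0.12) for Smpd1, -0.13 (-0.25 to -0.016) for Smpd2, -0.12 (-0.24 to 0.0090) for Smpd4 and 0.013 (-0.13 to 0.15) for S1pr3. S1pr2 had 0.18, S1pr4 0.23, Sphk1 -0.10 and Sphk2 0.032, none called.

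The genotypes were compared again among the kidneys given rCD5L, which share no kidney with the PBS pair. No member and no gene of 17360 was called (0% of all genes), and 8 members (20.0%) had an unadjusted p under 0.05, against 17.8% of all genes. The groups did not overlap for 3 members (7.5%, against 7.38% of all genes), 1 higher (4.29% of all genes) and 2 lower (3.09% of all genes). The fold change was above 0 for 24 members, and for 48.9% of all genes. S1pr3 was at 49.5, 41.5, 44.9, 19.1 and 38.4 CPM in CD5L KO and at 58.9, 54.2, 51.1, 58.7 and 55.5 CPM in WT kidneys, with -0.53 (SE 0.194, adjusted p = 0.259). Cers4 was at 25.3, 30.5, 27.8, 21.1 and 28.8 CPM in CD5L KO and at 36.7, 30.9, 34.8, 34.7 and 31.9 CPM in WT kidneys, with -0.34 (SE 0.111, adjusted p = 0.259). Ormdl2 was at 24.6, 24.4, 23.4, 30.5 and 24 CPM in CD5L KO and at 18.6, 19.8, 21.8, 17.0 and 18.5 CPM in WT kidneys, with 0.40 (SE 0.120, adjusted p = 0.259). The fibroblast and myofibroblast markers summed to 806 to 2749 CPM in CD5L KO and 2014 to 2619 CPM in WT kidneys, and their part in the S1pr3 value was not tested.

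Without replicates 3 and 4 of the CD5L KO group, S1pr3 (log2 fold change -0.38, adjusted p = 0.0334) and Ormdl1 (0.39, adjusted p = 0.0383) were called, a setting chosen after the data were seen, which called 3.58% of all genes (1.62% higher and 1.95% lower). Cers4 was then at -0.27 (adjusted p = 0.0886) and Ormdl2 at 0.33 (adjusted p = 0.0562). With all 19 kidneys in 1 fit, which called 7% of all genes (5.03% higher and 1.96% lower), 5 members were called, Sptlc2, Ormdl1, Ormdl2 and Degs2 higher and Cers4 lower in CD5L KO kidneys. Degs2, with the largest fold change of the members here (0.98), stood at 0.29 without them, and Galc went from 0.55 to 0.13. Of the sphingomyelinases, Smpd1 had 0.26 (-0.067 without the kidneys), Smpd2 0.39 (0.0045), Smpd3 0.23 (0.25) and Smpd4 0.0068 (-0.048). S1pr1 had -0.27 (-0.24), S1pr2 -0.18 (-0.15), S1pr4 -0.10 (-0.11), Sphk1 -0.15 (-0.21) and Sphk2 0.15 (-0.12).

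Of the 7 members called with PBS, 6 (85.7%) had the same sign with rCD5L, against 92.3% of the 1843 genes called with PBS and tested in both. Over all 40 members it was 28 (70.0%), against 67.6% of 17163 genes. The exception was Smpd4, at -0.28 with PBS and 0.0068 with rCD5L. The latter turned to -0.030 without CD5L KO replicate 4 and to -0.048 without replicates 3 and 4, where 7 of the 7 had the same sign, against 96.8% of the 1849 genes called with PBS. Over all 40 members the count without those kidneys was 26 (65.0%), against 71.8% of 17428 genes. In the PBS and rCD5L pairs, the log2 fold changes were -0.38 and -0.53 for S1pr3, -0.36 and -0.34 for Cers4, -0.33 and -0.28 for Cerk (the latter -0.21 without replicates 3 and 4), 0.32 and 0.37 for Ormdl1, -0.51 and -0.27 for S1pr1, and -0.49 and -0.15 for Sphk1.

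**Figure D4:**
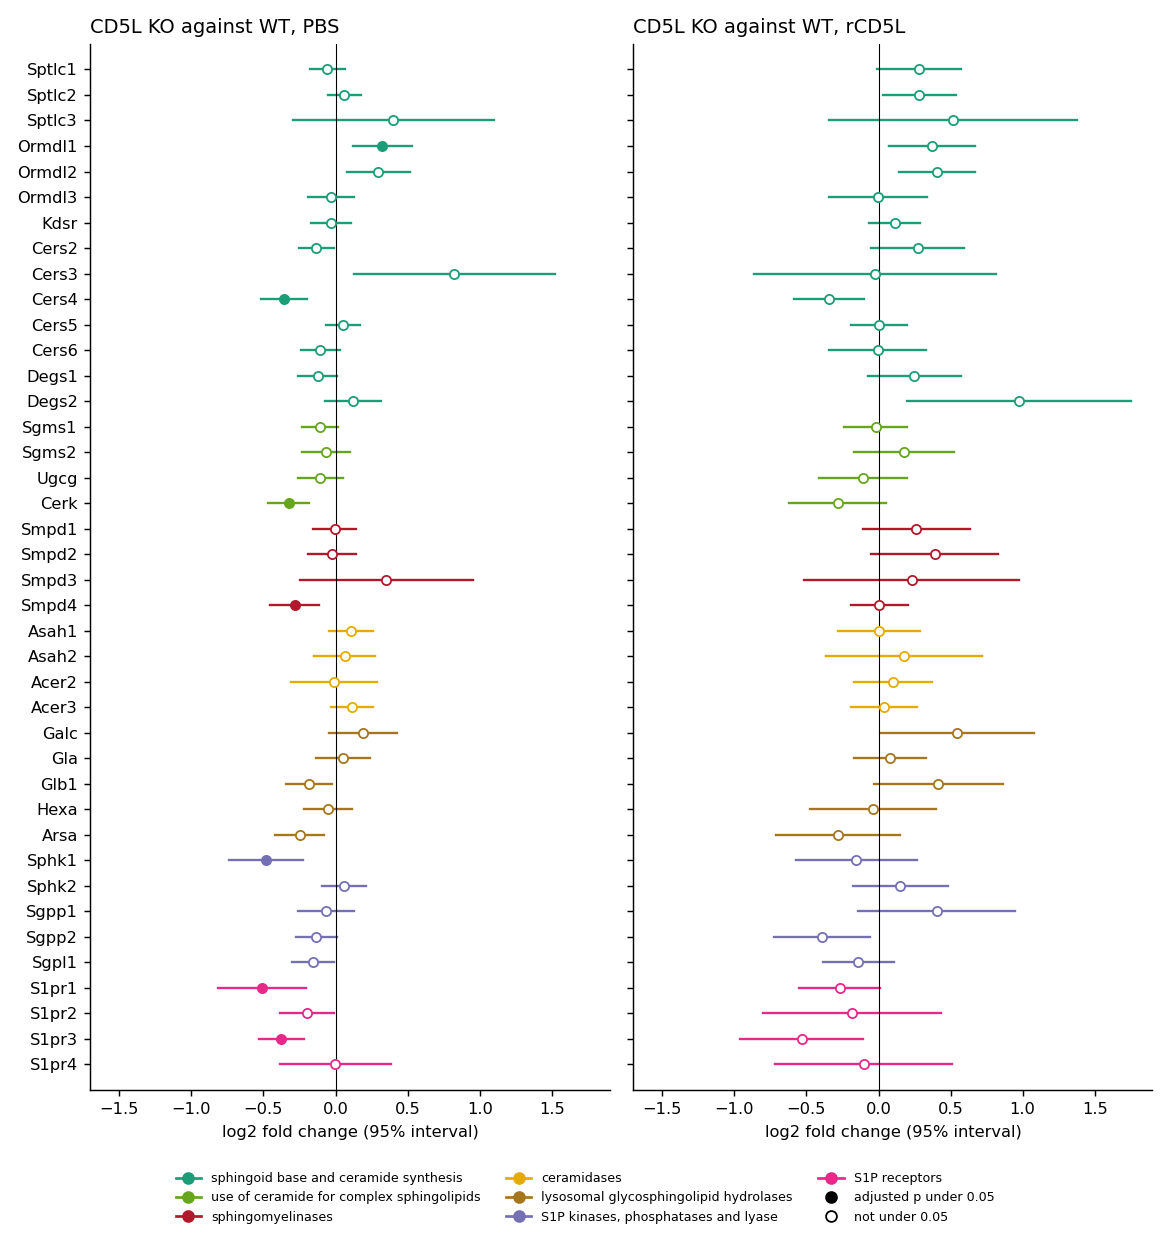
log2 fold change with its 95% interval of each of the 40 tested genes in CD5L KO against WT, with PBS on the left and with rCD5L on the right, coloured by role, with filled points for an adjusted p under 0.05. The 7 filled points are all on the left, and the intervals on the right are wider.

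Whether rCD5L acted differently in the 2 genotypes was tested as an interaction over all 19 kidneys. No member and no gene of 18454 was called (0% of all genes), and 6 members (15.0%) had an unadjusted p under 0.05, against 6.25% of all genes. The smallest was that of Smpd4, with an interaction of 0.31 on the log2 scale (0.069 to 0.54, adjusted p = 0.731 in edgeR's quasi-likelihood test), and 0.24 without replicates 3 and 4. Those of Glb1 and Cers2 were 0.62 and 0.42, and 0.20 and 0.19 without them. The largest in size were those of Degs2 (0.87, 0.17 without them) and Cers3 (-0.84, -0.52 without them). The interaction was 0.26 (-0.16 to 0.67) for S1pr1, -0.14 (-0.61 to 0.33) for S1pr3 and 0.29 (-0.14 to 0.71) for Smpd1, and without those kidneys it was 0.27, -0.0011 and -0.058.

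**Figure D5:**
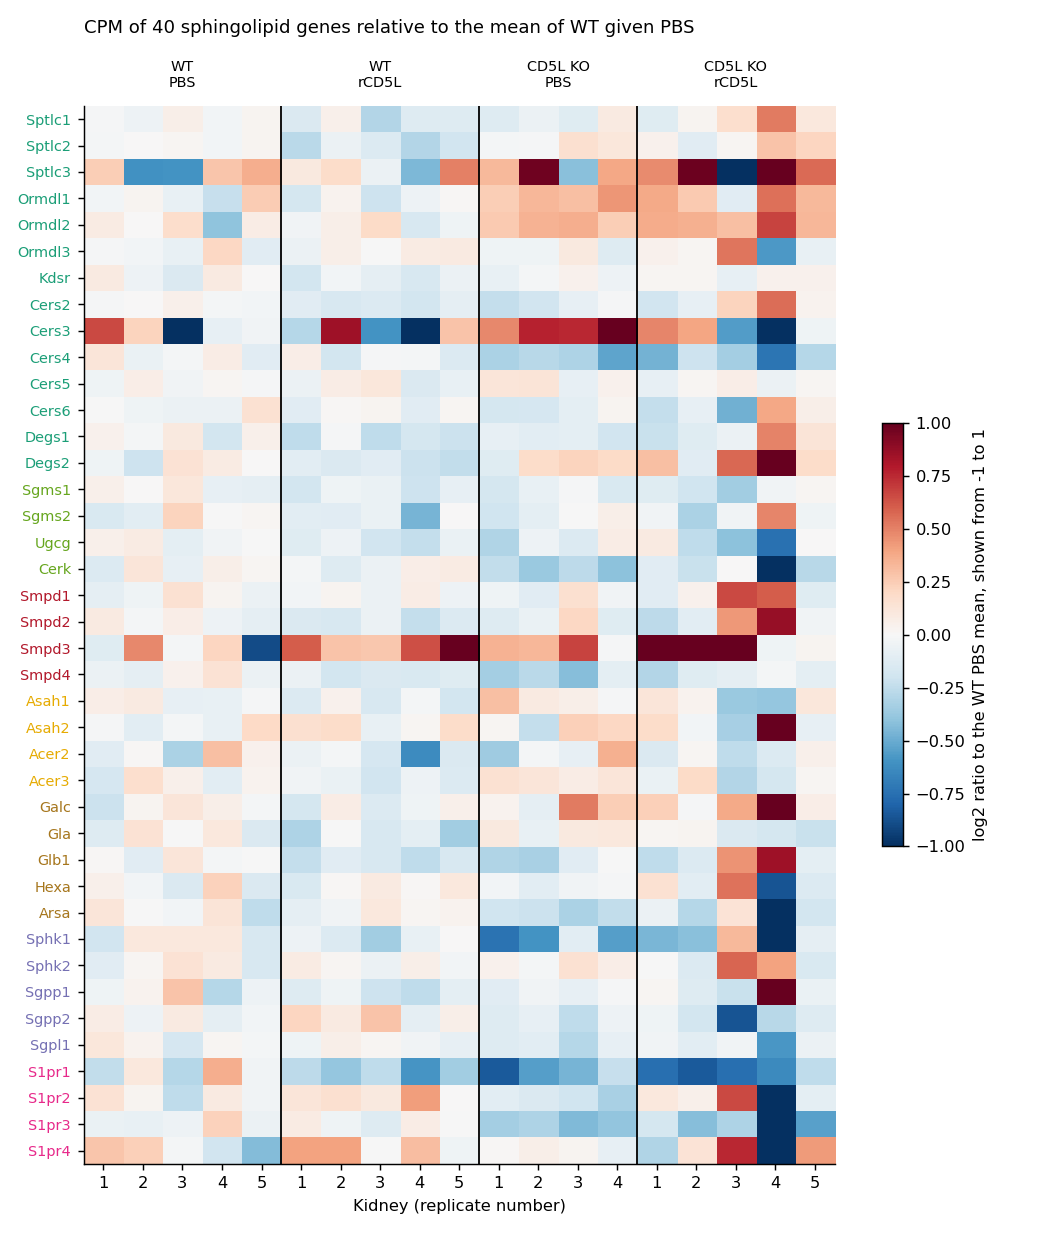
log2 ratio of each kidney's CPM to the mean of the WT kidneys given PBS for the 40 tested genes, with 1 column per kidney, groups separated by lines and a colour scale limited to -1 to 1. The S1pr3 row is blue through the CD5L KO groups, the S1pr1 row is blue through them and through the WT group with rCD5L, the Ormdl2 row is red in the CD5L KO groups, and replicates 3 and 4 of the CD5L KO group with rCD5L carry many of the strongest colours.

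In WT kidneys given rCD5L the coefficient of variation was 3.90% for Smpd1 and 5.86% for S1pr3, and in CD5L KO kidneys given rCD5L it was 27.6% and 30.2%. Kdsr, the reductase that follows serine palmitoyltransferase, and Cers5 kept 3.65% and 4.19% even there. Without replicates 3 and 4 of the CD5L KO group, the coefficient was 6.47% for Smpd1 and 13.3% for S1pr3. The common coefficient of biological variation over all genes was 11.6% for WT with rCD5L against PBS, 12.6% for CD5L KO against WT with PBS, and 28.8% for CD5L KO with rCD5L against PBS.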

How the data were processed

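The authors extracted RNA from whole kidneys and sequenced paired ends of random-hexamer libraries. Trimmed reads (Trimmomatic) were aligned by them with HISAT2, GRCm38 being the genome, and featureCounts gave a count per gene. Deposited by the authors were raw counts and FPKM values of the same 54532 genes. Versions and the strand setting are not given in the sources used here. Groups and replicate numbers came from the sample labels, and table columns were assigned to samples by their names.

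The main test was the quasi-likelihood F test of edgeR 4.0.16 (R 4.3.3) on the raw counts, with TMM scaling and genes kept by filterByExpr (minimum count 10). Each fit held only the 2 groups compared, and the interaction fit held all 4. Benjamini-Hochberg adjustment ran over all genes tested, and genes under 0.05 were called. The SE is the size of the log2 fold change divided by the square root of F, and intervals are 95%. CPM per kidney used TMM factors over all 19 kidneys. FPKM was used for levels between genes. The limit of 3 counts for a count of 0 covers counting error only, as the libraries carried no molecular identifiers.

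Values were given for called members, Smpd1 to Smpd4, the sphingosine kinases, the S1P receptors, the 2 uncalled members with the largest fold change in each comparison, and the called genes among the further sphingolipid genes. Other members are given to complete a role and were chosen after their values were seen. The members and lists were chosen with earlier results of these data known. Alternatives were RLE factors, DESeq2 1.42.0, no filter, all 19 kidneys fitted together, a block for the replicate number, limma 3.58.1 on log2(FPKM + 1) or log2(FPKM + 0.1) or with a mean FPKM of at least 1, a gene length offset (lowess span 0.3), and leaving out each kidney.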

Additional observations from a re-analysis of the deposited data

Results flagged for a closer look

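For 9 of 72 pairs of a named gene and a group, 1 kidney lay far from the others of its group, by the gap to its neighbour divided by the range (Dixon's test at 95%), where chance flags about 1 pair in 20. Over all members it was 18 of 164 pairs. Of the 9, 2 came from replicate 4 of the CD5L KO group with rCD5L, Degs2 at 108 CPM (others 25.3 to 40.7 CPM) and Galc, the galactosylceramidase, at 152 CPM (others 59.2 to 77.4 CPM). In the CD5L KO group with PBS, Cers4 was lowest in replicate 4 at 24.4 CPM (others 28.2 to 28.9 CPM), Degs2 was lowest in replicate 1 at 25.2 CPM (others 31.0 to 32.0 CPM) and Smpd2 was highest in replicate 3 at 56.4 CPM (others 44.7 to 46.6 CPM). In the WT group with PBS, S1pr3 was highest in replicate 4 at 65.3 CPM (others 52.8 to 53.8 CPM), and S1pr5 was lowest in replicate 5 at 0.0464 CPM (others 0.161 to 0.191 CPM). In the WT group with rCD5L, Smpd3 was highest in replicate 5 at 3.07 CPM (others 1.45 to 1.89 CPM), and S1pr5 was highest in replicate 2 at 0.629 CPM (others 0.200 to 0.299 CPM). S1pr3 and Cers4 passed the test in CD5L KO against WT with PBS also without these kidneys.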

How the results depend on the processing

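In CD5L KO against WT with PBS, the 7 members called became 0 with all 19 kidneys in 1 fit (12 genes called in all, against 1850), 2 with limma on FPKM at pseudocount 1 (967 genes) or 0.1 (986 genes), namely Cerk and S1pr3, and 3 to 6 when 1 kidney was left out (1015 to 2062 genes). It was 3 without CD5L KO replicate 1 or 2 or WT replicate 2 or 4, and 4 without CD5L KO replicate 3. The count was 10 with DESeq2 (2622 genes), 7 with RLE factors, 6 without a filter, 6 with a mean FPKM of at least 1 and 5 with the gene length offset. In WT mice, DESeq2 called 3 members for rCD5L (542 genes) and the other settings 0, with 137 genes called without a filter and 39 without WT replicate 1 of the PBS group. Among kidneys given rCD5L, the genotypes differed in 5 members with all 19 kidneys in 1 fit (1291 genes) and in 2 without replicates 3 and 4 of the CD5L KO group together (644 genes), an alternative chosen after seeing the data, and in 0 under each other setting (150 genes with DESeq2). For rCD5L in CD5L KO mice (10 genes with DESeq2) and for the interaction, each setting run gave 0 members. The causes were not tested.

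Of the 1291 refits of 63 pairs of a named gene and a comparison, 66 had the other sign, all of pairs that were not called, 47 lost and 7 gained the call, and 1171 did neither. The smallest adjusted p among the 66 was 0.305. With RLE factors, the log2 value turned to 0.00210 for S1pr4 in CD5L KO against WT with PBS. With DESeq2, the log2 value turned to 0.000765 for S1pr4 in CD5L KO against WT with PBS. Without a filter, the log2 value turned to 0.00373 for S1pr4 in CD5L KO against WT with PBS, to -0.000480 for Smpd1 in WT mice given rCD5L or PBS. With all 19 kidneys in 1 fit, the log2 value turned to 0.00670 for S1pr4 in CD5L KO against WT with PBS, to -0.000715 for Smpd1 in WT mice given rCD5L or PBS. With the replicate block, the log2 value turned to -0.072 for S1pr4 in CD5L KO mice given rCD5L or PBS. With limma on FPKM at pseudocount 1, with or without the minimum mean FPKM, the log2 value turned to 0.000397 for S1pr4 in CD5L KO against WT with PBS, to -0.011 for Smpd4 in CD5L KO against WT with rCD5L, to -0.071 for S1pr2 in the interaction. With limma on FPKM at pseudocount 0.1, the log2 value turned to 0.00951 for S1pr4 in CD5L KO against WT with PBS, to -0.014 for Smpd4 in CD5L KO against WT with rCD5L, to -0.13 for S1pr2 in the interaction. Without replicates 3 and 4 of the CD5L KO group with rCD5L, the log2 value turned to 0.00757 for S1pr3, -0.054 for Smpd1, -0.10 for Smpd2 and -0.15 for Sphk2 in CD5L KO mice given rCD5L or PBS, to -0.067 for Smpd1, -0.048 for Smpd4 and -0.12 for Sphk2 in CD5L KO against WT with rCD5L, to -0.058 for Smpd1 and -0.18 for Sphk2 in the interaction. With 1 kidney left out, the log2 values that changed sign ran from -0.093 to 0.081 for S1pr4, -0.063 to 0.031 for Smpd1 and -0.11 to 0.014 for Smpd2 in CD5L KO against WT with PBS, from -0.032 to 0.41 for S1pr2, -0.25 to 0.025 for S1pr3 and -0.075 to 0.31 for S1pr4 in CD5L KO mice given rCD5L or PBS, from -0.00817 to 0.076 for S1pr3, -0.016 to 0.050 for Smpd1 and -0.00581 to 0.071 for Sphk2 in WT mice given rCD5L or PBS, from -0.40 to 0.032 for S1pr2, -0.30 to 0.069 for S1pr4 and -0.030 to 0.057 for Smpd4 in CD5L KO against WT with rCD5L, from -0.19 to 0.23 for S1pr2, -0.24 to 0.012 for S1pr3, -0.29 to 0.072 for S1pr4, -0.27 to 0.12 for Smpd3 and -0.012 to 0.19 for Sphk2 in the interaction.

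The replicate number as a block gave 9 members in CD5L KO against WT with PBS, with Arsa and Ormdl2 added to the 7, and 0 elsewhere. The correlations of the deviations of same-numbered kidneys were -0.049 to 0.117 for that pair of groups and 0.017 to 0.174 for the CD5L KO groups, with 3 of 4 over 0.1 in the latter and 2 of 4 in the former, and none over 0.1 in the other 2 pairs of groups. Of the kidneys, 4 of 8, 4 of 8, 0 of 10 and 0 of 10 correlated best with their own number. The labels give no shared source for a number and not every pair exceeded 0.1, so the numbers were not used as pairs, and whether they pair the CD5L KO kidneys could not be settled. The library names of the CD5L KO group with PBS begin at a later number than those of the other groups. Only replicate numbers were matched here, and matching by library name was not tested. Depth limits S1pr5, with 0 to 12 counts.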

Other observations

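Beyond the 41 genes, 2 that carry S1P out of cells or in blood are given here, chosen after their values were seen. Apom, the S1P carrier of high-density lipoprotein, averaged 11.9 ± 2.51 CPM with PBS and 7.62 ± 2.61 CPM with rCD5L in WT kidneys (SD, n = 5 each). In CD5L KO kidneys it averaged 11.6 ± 4.33 CPM with PBS (SD, n = 4) and 37.0 ± 54.2 CPM with rCD5L (SD, n = 5). Replicate 4 of that last group, the kidney with the high proximal tubule markers, was at 134 CPM and its other 4 kidneys at 9.05 to 21.3 CPM, and without it the mean was 12.9 ± 5.71 CPM (SD, n = 4). None of its comparisons was called by edgeR's quasi-likelihood test (adjusted p = 0.147 for rCD5L in WT mice and 0.897 in CD5L KO mice). In WT kidneys the proximal tubule markers summed to 1519 to 2724 CPM with PBS and 1311 to 1936 CPM with rCD5L, and their part in the Apom values was not tested. Spns2, the S1P exporter of endothelial cells, averaged 239 ± 20.1 CPM in CD5L KO (SD, n = 4) and 205 ± 28.3 CPM in WT kidneys with PBS (SD, n = 5), with an edgeR adjusted p = 0.165. In WT kidneys with rCD5L it averaged 242 ± 21.2 CPM (SD, n = 5), with an edgeR adjusted p = 0.178 against PBS. The CD5L KO kidneys with rCD5L were at 220.3, 277, 271, 178 and 202 CPM, a mean of 229.6 ± 43.3 CPM (SD, n = 5) (edgeR adjusted p = 0.973 against CD5L KO with PBS and 0.765 against WT with rCD5L). Without replicate 4 that mean was 242.5 ± 37.3 CPM (SD, n = 4), so that it lay below the means of both those groups with this kidney and above both without it. Leaving out replicate 3 (271 CPM) as well put the mean below both again.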
